A study of Mus musculus with 7 samples.

Results

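The genes described here are 40 genes of fatty acid uptake, activation and mitochondrial beta-oxidation, together with the genes of the lipid droplet that supplies the acids, in RNA-seq libraries of C2C12 myotubes. They were taken by symbol, with no measured value in the rule, from a list of the pathway's known genes that was drawn up with earlier results of these data known, and all 40 are among the 26607 genes listed for every library. C2C12 is a mouse myoblast line that fuses into contracting myotubes when serum is lowered, and it is a single cell line without nerve, blood supply or adipose tissue. The control group (n = 3, replicates 1, 3 and 4) was differentiated and left unstimulated, and the electrical pulse stimulation (EPS) group (n = 4, replicates 1 to 4) was stimulated for 24 h from 3 days after the start of differentiation and then rested for 1 h. No genetic change or drug is named for either group, and the comparison asks which genes differ in RNA level between stimulated and unstimulated myotubes. Whether the replicates were separate cultures is not given beyond the sample labels, so the P values measure the spread between these samples, which may be technical.

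Long-chain fatty acids enter muscle cells through membrane proteins such as CD36, are carried by binding proteins in the cytosol and are activated to acyl-CoA. Carnitine palmitoyltransferase 1 on the outer mitochondrial membrane passes the acyl chain to carnitine, which is the rate-limiting and malonyl-CoA-inhibited step, and carnitine palmitoyltransferase 2 returns it to CoA inside. Each turn of the beta-oxidation spiral then removes a short acetyl-CoA unit and hands electrons to the respiratory chain. Contracting skeletal muscle is a major user of this pathway in vivo.

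Values are read counts scaled to the total of each library (CPM), from libraries of 16616917 to 22120641 reads on the listed genes. Control replicate 4 stood apart from the other libraries, with 359 genes at 1 to 5 reads against 2670 to 3181 in the others. It had 14014 genes above 0 against 16144 to 16984. Genes named as passing a threshold over all libraries are therefore also given without it. The myotube markers were abundant in every library, with a summed level of 18050 to 21272 CPM over 12 genes in the control group and 12405.5 to 19315 CPM in the EPS group. Of these 12 genes 10 had a log2 difference below 0 in limma (median -0.45). In limma 1 passed P under 0.01, the Z-disc gene Actn2 (-0.99, adjusted p = 0.177 in limma, 0.0202 in edgeR and 0.00606 in DESeq2). Leaving out control replicate 4 gave -0.93 for Actn2 in limma, which did not pass P under 0.01, and -1.11 in edgeR, which did. The early differentiation factor Myog differed by -1.07 with overlapping groups, and by -0.47 without control replicate 4. The 7 genes listed as markers of cycling myoblasts hold Pax7, Myf5 and Pdgfra, which are not cell cycle genes, and Pdgfra is not specific to myoblasts. The summed level of the 7 was 230 to 333 CPM in the control group and 365 to 953 CPM in the EPS group. These sums did not overlap, although of the single genes only Pdgfra had groups that did not overlap. The sum was highest in EPS replicate 4. Of these 7 genes 5 were higher at P under 0.05 in limma, beside 8.40% of all genes, and 0 at P under 0.01. The 5 were the proliferation genes Mki67, Top2a, Ccnb1 and Cdk1 at 0.86 to 1.38 with overlapping groups, and Pdgfra at 0.70 without overlap. In edgeR Mki67, Top2a, Ccnb1 and Cdk1 passed P under 0.01, and Mki67 had an adjusted p of 0.0458 in edgeR and 0.0186 in DESeq2. Without control replicate 4, Mki67 (1.15), Ccnb1 (1.02) and Pdgfra (0.43) passed P under 0.05 in limma. Top2a (0.72) and Cdk1 (0.84) did not. In edgeR without that library none of these genes passed P under 0.01. The myoblast identity genes Pax7 and Myf5 differed by -0.12 and 0.20. The summed adipocyte markers were at most 0.588 CPM, with Plin1, Lep, Retn and Cidec at 0 in every library. The macrophage markers summed to 3.21 to 5.42 CPM with Emr1, the F4/80 gene, at 0, and the endothelial markers to 1.01 to 3.30 CPM. In bulk RNA, a change in the share of cells of a type and a change in RNA per cell cannot be told apart, and the part of the myotube and myoblast shares in the results below was not tested.

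Of the 40 genes, Cd36 fell and Cpt1a and Plin2 rose at P under 0.01 (limma on log2(CPM + 1), two-sided, 19144 genes tested). This was 3 of 40 genes, where 4.17% of all genes tested passed the same threshold. At P under 0.01 with more than a 2-fold change, 1 of the 40 genes passed (Cd36) beside 1.41% of all genes. At a Benjamini-Hochberg adjusted p under 0.05 in limma, 0 of the 40 genes passed beside 0.141% of all genes, and 10 of the 40 had an unadjusted P under 0.05. These 10 were 9 genes higher in the EPS group, beside 8.40% of all genes, and 1 lower, beside 3.21% of all genes. In edgeR and in DESeq2 on reads recovered from the CPM, Cd36 alone of the 40 passed the adjusted threshold.

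**Figure D1:**
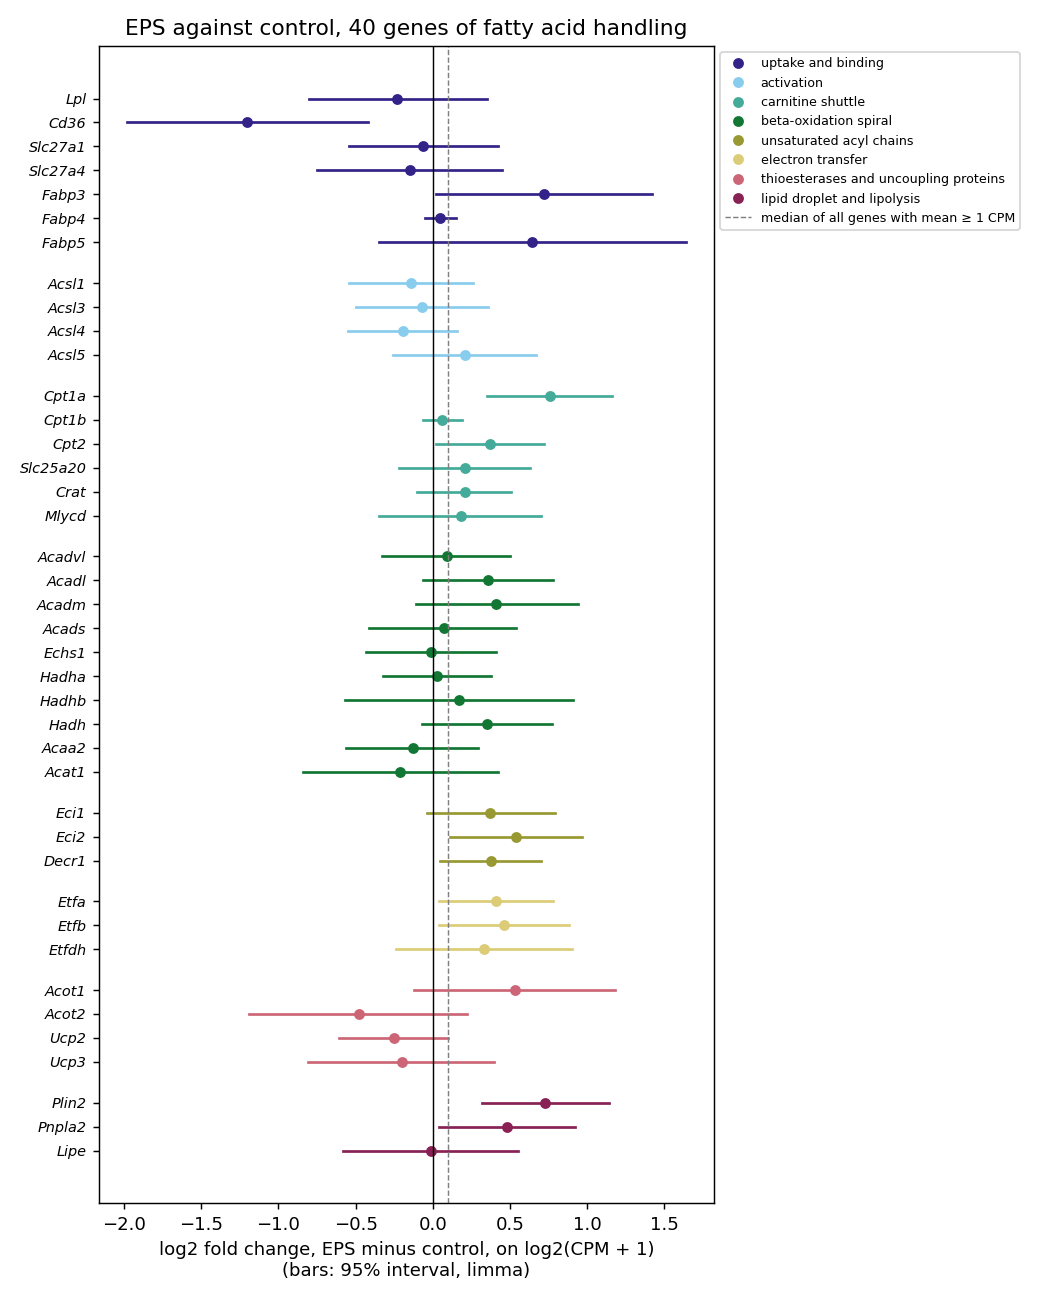
Log2 fold change of the 40 genes, EPS minus control on the log2(CPM + 1) scale, with 95% intervals from limma, ordered and coloured by role. Cd36 lies farthest below 0 at -1.20, Cpt1a (0.76) and Plin2 (0.73) lie farthest above it, and the dashed line marks the median of all genes with a mean of at least 1 CPM (0.10).

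Promoter sequence is shown for these 3 genes because they are the genes of the set that passed P under 0.01 and belong to a pathway whose known regulators are nuclear receptors of the PPAR family. Each line gives 230 bases that end 20 bases before a RefSeq transcription start (build GRCm38.p6), read 5′ to 3′ on the gene's strand. Capitals mark the nuclear receptor half-site AGGTCA, which was searched on both strands and occurs here as its reverse complement TGACCT.
Cd36: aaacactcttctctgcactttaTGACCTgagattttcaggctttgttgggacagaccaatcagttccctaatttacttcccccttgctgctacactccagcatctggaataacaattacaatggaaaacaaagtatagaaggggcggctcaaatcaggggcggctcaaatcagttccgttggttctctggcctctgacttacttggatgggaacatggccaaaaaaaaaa
Cpt1a: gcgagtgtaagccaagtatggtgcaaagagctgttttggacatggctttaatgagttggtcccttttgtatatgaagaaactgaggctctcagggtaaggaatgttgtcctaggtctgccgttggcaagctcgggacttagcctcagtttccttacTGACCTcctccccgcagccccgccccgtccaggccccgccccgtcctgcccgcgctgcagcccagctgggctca
Plin2: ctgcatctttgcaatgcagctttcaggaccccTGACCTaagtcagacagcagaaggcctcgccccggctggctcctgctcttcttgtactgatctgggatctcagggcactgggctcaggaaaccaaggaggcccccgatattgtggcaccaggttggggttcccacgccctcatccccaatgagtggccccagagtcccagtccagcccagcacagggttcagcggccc
The Cd36 stretch is chr5:17835917-17836146 (minus strand) and its half-site begins 228 bases before the start. The Cpt1a stretch is chr19:3323051-3323280 (plus strand) with the half-site 94 bases before the start, and the Plin2 stretch is chr4:86670080-86670309 (minus strand) with the half-site 218 bases before the start. The starts used for Cd36 and Cpt1a lie inside the annotated spans of these genes. Within 250 bases of the start, the half-site was present at 14.02% of all 32851 RefSeq starts and at 7 of the 36 starts of the 32 genes of the set that could be matched, which belong to Acadm, Acadvl, Cd36, Cpt1a, Echs1, Plin2 and Ucp3. Half-sites were thus found both at the gene that fell and at the genes that rose, and at 4 genes that did not pass the test. The full direct repeat with 1 base between half-sites, the usual PPAR element, was at 0.0335% of all starts and at 0 of these 36. The antioxidant response element core TGACNNNGC was at 10.2% of all starts and at 1 start of the set, that of Ucp2. A match is only a match of letters and shows no binding.

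Uptake and binding were represented by 7 genes. Cd36 encodes the fatty acid translocase of the plasma membrane (ENSMUSG00000002944, chr5:17781690-17888801 in GRCm38). Its level was 55.8, 100.1 and 36.3 CPM in control replicates 1, 3 and 4, and 27.04, 35.7, 22.7 and 17.8 CPM in EPS replicates 1 to 4. All EPS libraries lay below all 3 control libraries, although EPS replicate 2 was only just below control replicate 4, and the control libraries differed among themselves more than the EPS libraries did. The control mean was 64.1 ± 32.7 CPM (SD, n = 3) and the EPS mean 25.8 ± 7.58 CPM (SD, n = 4), a ratio of 0.403. On the log2(CPM + 1) scale the difference was -1.20 (SE 0.34, limma adjusted p = 0.219). The exact permutation test of the mean CPM gave P = 0.0286, two-sided, which is the smallest value that 35 splits of 7 libraries allow. The count models gave log2 differences of -1.41 in edgeR (adjusted p = 0.00917) and -1.42 in DESeq2 (adjusted p = 0.00179), and over all settings tried the adjusted p ranged from 0.00179 to 0.523.

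The size of the Cd36 difference depended on single libraries. Without control replicate 3, the library with the highest level, it was -0.82 and did not pass P under 0.01. Without control replicate 4 it was -1.54 and passed P under 0.01. Leaving out control replicate 1, EPS replicate 1, EPS replicate 3 or EPS replicate 4 also left the P value above 0.01, with differences of -1.04 to -1.24.

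The other uptake genes did not pass the test. Lpl, the lipase that frees fatty acids from lipoproteins, was at 1.93 to 3.96 CPM in all libraries. The transport proteins Slc27a1 (log2 difference -0.06, SE 0.21) and Slc27a4 (-0.15, SE 0.26) had overlapping groups. Fabp3, the binding protein of heart and muscle, was at 15.1, 16.97 and 18.2 CPM in the control libraries and at 18.99, 50.7, 23.2 and 27.9 CPM in the EPS libraries. The groups did not overlap, but the gap between them was small and EPS replicate 2 was high. The log2 difference of Fabp3 was 0.72 (SE 0.31, P = 0.0443, limma adjusted p = 0.412), the exact permutation P was 0.114, and without EPS replicate 2 the difference was 0.44 and did not pass P under 0.05. It was 0.78 without control replicate 4 and did not pass P under 0.05 there either. Fabp5, the epidermal form, was at 0 in control replicate 4 and at 0.926 to 3.68 CPM elsewhere. Fabp4, the adipocyte form, had at most 2 reads in any library, under the limit of 3 reads that a count of 0 allows.

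Among all genes tested, 7.76% had all EPS libraries above all control libraries and 2.85% had all below. Of the 40 genes, 6 were wholly above (Fabp3, Cpt1a, Cpt2, Decr1, Acot1 and Plin2) and 1 was wholly below (Cd36).

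**Figure D2:**
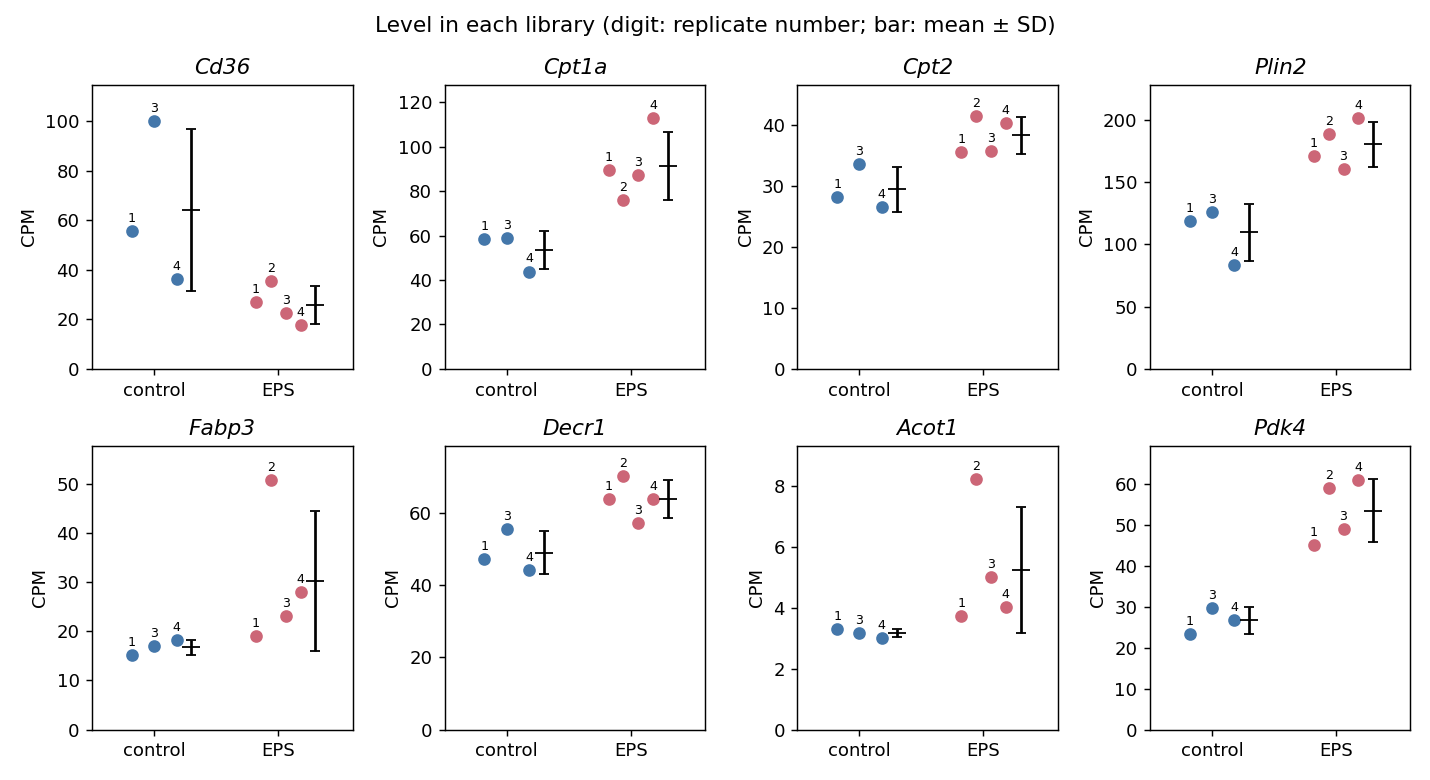
CPM in each library for the 7 genes of the set whose groups do not overlap and for Pdk4, a PPAR target outside the set. Points carry the replicate number and the bars give mean ± SD (control n = 3, EPS n = 4). Cd36 is lower in the EPS libraries (17.8 to 35.7 CPM against 36.3 to 100.1), and the high EPS value of Fabp3 and of Acot1 is replicate 2 in both panels.

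Activation to acyl-CoA was represented by 4 long-chain acyl-CoA synthetases, and none of Acsl1, Acsl3, Acsl4 and Acsl5 passed P under 0.01 or P under 0.05 in limma. Their log2 differences were -0.14, -0.07, -0.19 and 0.21. Acsl3, a synthetase of the endoplasmic reticulum and lipid droplets, was the most abundant of them and was the third of the 40 genes in level per length of merged exons (67.4 CPM per kb, mean of 7 libraries). It was at 324.6, 330.6 and 249.5 CPM in the control libraries and at 261.0, 356.0, 280.4 and 254.5 CPM in the EPS libraries. The groups overlapped through most of their range. Utp14b lies within the span of Acsl3 on the same strand, and how reads in the overlap were assigned is not given. Acsl1, the main muscle synthetase for oxidation in vivo, was at 24.4 to 36.5 CPM.

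The carnitine shuttle was represented by 6 genes, and Cpt1a rose. Cpt1a, the liver isoform of carnitine palmitoyltransferase 1 (ENSMUSG00000024900, chr19:3322334-3385733), was at 58.4, 58.9 and 43.9 CPM in the control libraries. In the EPS libraries it was at 89.7, 76.0, 87.3 and 112.8 CPM, so the groups were separated by 17.1 CPM and EPS replicate 4 was highest. The mean was 53.7 ± 8.54 CPM (SD, n = 3) against 91.5 ± 15.4 CPM (SD, n = 4), a ratio of 1.70. The log2 difference was 0.76 (SE 0.18, P = 0.00239, limma adjusted p = 0.146, exact permutation P = 0.0286). Without control replicate 4 it was 0.62 and still passed P under 0.01 in limma, while in edgeR without that library it was 0.55 and did not pass (adjusted p = 0.387). Over the settings tried its adjusted p ranged from 0.0808 to 0.539.

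Cpt1b, the muscle isoform of the same enzyme, was listed at 0 to 3 reads in every library (at most 0.146 CPM). This is under or at the limit that a count of 0 allows. The neighbouring gene Chkb was likewise listed near 0 (at most 0.117 CPM), and in GENCODE M21 both genes lie under a readthrough gene, Gm44502, on the same strand, which is not among the listed genes. A low listed value therefore does not show that Cpt1b was not transcribed, and the part of the overlap in it was not tested. The relative use of the isoforms of this enzyme cannot be read from these files.

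Cpt2, the inner membrane enzyme, was at 28.2, 33.6 and 26.5 CPM in the control libraries and at 35.6, 41.5, 35.6 and 40.3 CPM in the EPS libraries. All EPS libraries were higher, by a narrow margin over control replicate 3. The log2 difference of Cpt2 was 0.37 (SE 0.15, P = 0.0401, limma adjusted p = 0.399, exact permutation P = 0.0286), and it was 0.28 in edgeR and 0.30 without control replicate 4, where it did not pass P under 0.05. Slc25a20, the carnitine-acylcarnitine carrier, Crat, which moves short acyl groups, and Mlycd, which breaks down malonyl-CoA, had log2 differences of 0.21, 0.21 and 0.18 and did not pass the test. The 6 genes summed to 190 to 214 CPM in the control group and 259 to 293 CPM in the EPS group.

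The beta-oxidation spiral itself, with 10 genes from the acyl-CoA dehydrogenases to the thiolases, held no gene past P under 0.05 in limma over all libraries. Single genes passed it when 1 control library was left out, namely Hadh without replicate 4 (0.50, against 0.35 over all libraries), Acadl without replicate 1 (0.53) and Acadm without replicate 3 (0.61). The log2 differences ran from -0.21 for Acat1 to 0.41 for Acadm. The summed level was 888 to 944 CPM in the control group and 882 to 1065 CPM in the EPS group, and these ranges overlap. Acadl, the long-chain dehydrogenase, had the highest level per length of the 40 genes (70.7 CPM per kb). It was at 153.6, 103.1 and 111.1 CPM in the control libraries and at 143.4, 143.1, 147.4 and 190.5 CPM in the EPS libraries, so control replicate 1 lay above 3 of the EPS libraries. Its log2 difference was 0.36 (SE 0.19, limma adjusted p = 0.506, exact permutation P = 0.20). The annotation places Gm15793 on the same strand within its span.

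Acaa2, the medium-chain thiolase, followed at 68.6 CPM per kb. It was at 96.1, 114.5 and 115.8 CPM in the control libraries and at 122.3, 88.6, 77.5 and 112.8 CPM in the EPS libraries, with a log2 difference of -0.13 (SE 0.19, limma adjusted p = 0.814, exact permutation P = 0.514). The lowest and the highest of all 7 libraries were both EPS libraries. Hadha and Hadhb encode the subunits of the trifunctional protein, which are made in equal number. Their log2 differences were 0.03 and 0.17, and the ratio of Hadha to Hadhb in CPM per kb was 1.66 to 3.37 in the control libraries and 1.41 to 2.76 in the EPS libraries (exact permutation P = 0.714).

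**Figure D3:**
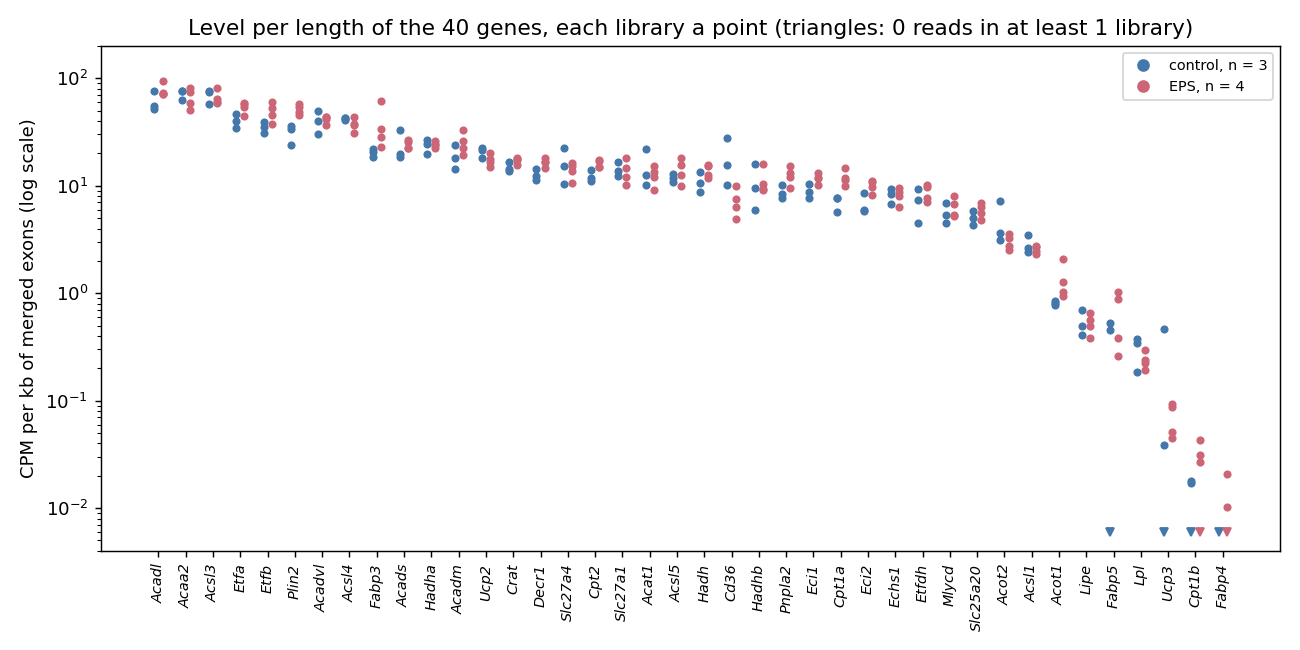
Level of the 40 genes in CPM per kb of merged exons on a log axis, with each library a point and the genes ordered by their mean. Triangles mark genes with 0 reads in a library. The levels run from Acadl at 70.7 CPM per kb on average down to Cpt1b and Fabp4, and the points of the groups overlap for most genes.

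Unsaturated acyl chains need isomerases and a reductase before they can pass through the spiral, and these were represented by Eci1, Eci2 and Decr1. None passed P under 0.01 over all libraries. Decr1, the dienoyl-CoA reductase, was at 47.3, 55.5 and 44.3 CPM in the control libraries and at 63.9, 70.2, 57.3 and 63.9 CPM in the EPS libraries. The groups did not overlap, with EPS replicate 3 close to control replicate 3. The log2 difference of Decr1 was 0.38 (SE 0.14, P = 0.0286, limma adjusted p = 0.356, exact permutation P = 0.0571). Eci2 differed by 0.54 (SE 0.19, exact permutation P = 0.0857) with overlapping groups, and by 0.72 without control replicate 3, where it passed P under 0.01. Without control replicate 4 the differences of Decr1 and Eci2 were 0.31 and 0.45, and neither passed P under 0.05. Eci1 differed by 0.37 over all libraries and did not pass P under 0.05, and by 0.49 without control replicate 4, where it did. The 3 genes summed to 96.5 to 122 CPM in the control group and 124 to 159 CPM in the EPS group.

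Electron transfer from the dehydrogenases to ubiquinone needs the flavoprotein subunits Etfa and Etfb and the oxidoreductase Etfdh. Etfa differed by 0.41 (SE 0.16) and Etfb by 0.46 (SE 0.18), both at P under 0.05 in limma with overlapping groups and an exact permutation P of 0.0857. Etfa differed by 0.30 without control replicate 4 and did not pass P under 0.05, and Etfb differed by 0.55 without it and did. Etfdh differed by 0.33 over all libraries and did not pass P under 0.05, and without control replicate 4 it was 0.04 in limma and -0.05 in edgeR. Other annotated genes lie within the spans of Etfb (Gm45233, Gm44816 and Mir7051) and Etfdh (Gm37973) on the same strand. The ratio of Etfa to Etfb in CPM per kb was 0.881 to 1.52 in the control libraries and 0.904 to 1.28 in the EPS libraries (exact permutation P = 0.886).

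The thioesterases and uncoupling proteins, which release CoA and dissipate or export mitochondrial products, were represented by 4 genes, none past P under 0.05 in limma over all libraries. Acot1, the cytosolic thioesterase, was at 3.32, 3.19 and 3.03 CPM in the control libraries and at 3.72, 8.23, 5.02 and 4.04 CPM in the EPS libraries. The control values lay close together, and EPS replicate 2 was well above the rest. The log2 difference was 0.53 (SE 0.29, P = 0.0977, limma adjusted p = 0.518, exact permutation P = 0.0857), and 0.32 without EPS replicate 2. Its mitochondrial neighbour Acot2 differed by -0.48 (SE 0.31), by -0.74 in edgeR and by -0.15 without control replicate 4, with that library high at 15.8 CPM and the other libraries at 5.58 to 7.99 CPM. The ratio of Acot1 to Acot2 per kb was 0.107 to 0.263 in the control libraries and 0.268 to 0.649 in the EPS libraries (exact permutation P = 0.0571). Acot1 and Acot2 are close paralogs and it is not given how reads matching both were treated, so their separate values are uncertain. Ucp2 was abundant at 104.4 to 156.8 CPM and differed by -0.25. Ucp3, the muscle uncoupling protein, was at 1.45 CPM in control replicate 4 and at most 0.292 CPM in the other libraries. Its log2 difference was -0.20 over all libraries and 0.20 without that library, where it passed P under 0.05 at levels near the limit of 3 reads.

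The lipid droplet and lipolysis were represented by Plin2, Pnpla2 and Lipe, and Plin2 rose. Plin2 encodes the perilipin that coats lipid droplets in most cells other than adipocytes (ENSMUSG00000028494, chr4:86648386-86670060). It was at 119.0, 126.4 and 83.5 CPM in the control libraries and at 171.3, 188.4, 160.5 and 201.6 CPM in the EPS libraries. The lowest EPS library was 34.1 CPM above the highest control library. The mean was 109.6 ± 22.9 CPM (SD, n = 3) against 180.5 ± 18.2 CPM (SD, n = 4), a ratio of 1.65. The log2 difference was 0.73 (SE 0.18, P = 0.00293, limma adjusted p = 0.159, exact permutation P = 0.0286). It was 0.55 without control replicate 4 and passed P under 0.01 there. It was 0.62 in edgeR over all libraries (adjusted p = 0.214) and 0.46 in edgeR without control replicate 4 (adjusted p = 0.438), and passed P under 0.01 in neither. The adjusted p ranged from 0.0834 to 0.570 over the settings tried.

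Pnpla2, the triglyceride lipase ATGL, differed by 0.48 (SE 0.19, exact permutation P = 0.0857) with overlapping groups, and by 0.40 without control replicate 4, where it did not pass P under 0.05. Lipe, the hormone-sensitive lipase, was at 2.23 to 4.07 CPM with a difference of -0.01. The 3 genes summed to 111 to 154 CPM in the control group and 202 to 241 CPM in the EPS group, and Plin2 made up most of that sum in every library.

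EPS replicate 4, the library with the highest summed markers of cycling myoblasts (953 CPM) and the lowest summed myotube markers (12405.5 CPM), held the lowest level of Cd36 and the highest levels of Cpt1a and Plin2. Without it the log2 differences were -1.04 for Cd36, 0.65 for Cpt1a and 0.68 for Plin2, and of these Cpt1a passed P under 0.01. The other libraries followed this order only in part. EPS replicate 2, with the lowest cycling sum of the EPS group (365 CPM), had its highest Cd36 and lowest Cpt1a. Its Plin2 (188.4 CPM) was however next to that of EPS replicate 4. Control replicate 4, with the lowest sum of all (230 CPM), had the lowest Cpt1a and Plin2 but also the lowest control Cd36 (36.3 CPM). The part of the cell state in the differences of Cd36, Cpt1a and Plin2 was not tested.

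**Figure D4:**
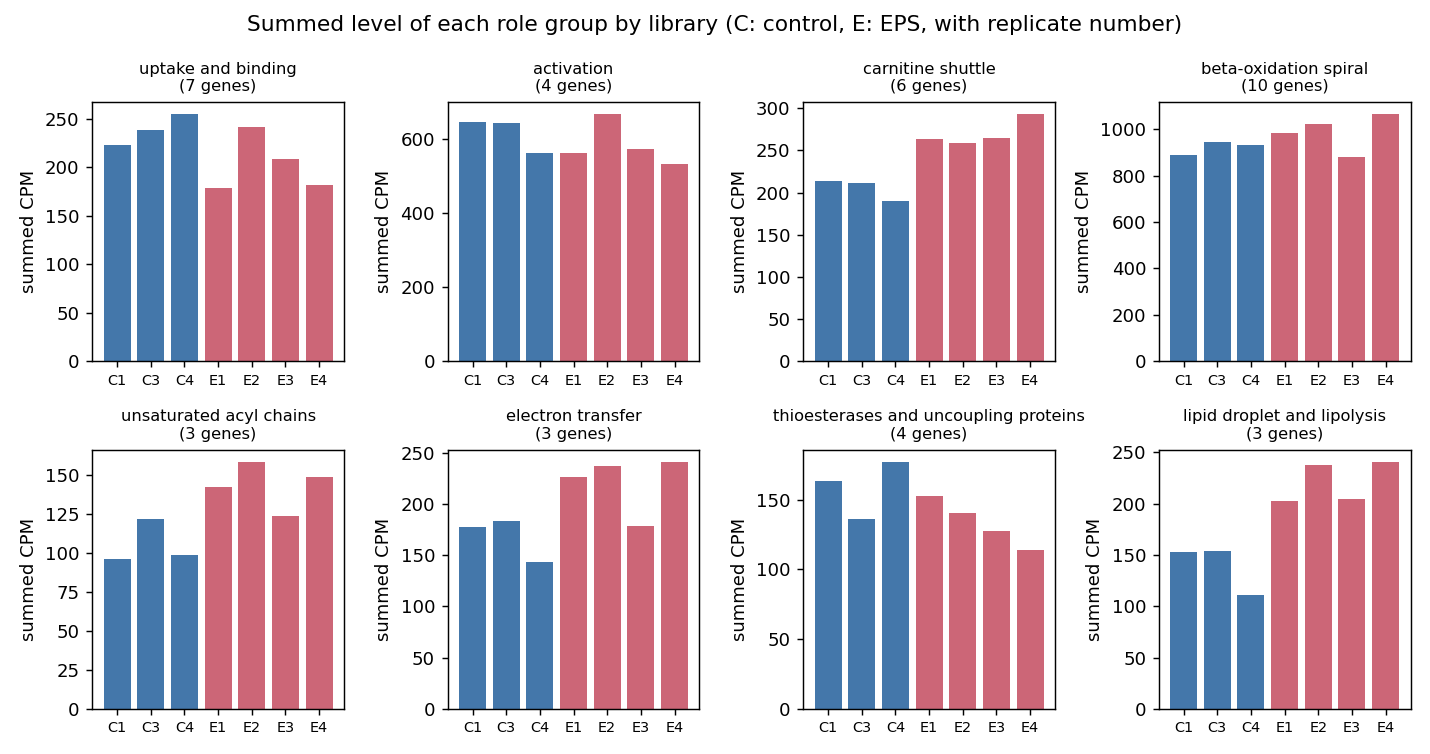
Summed CPM of each role group by library (C, control; E, EPS; the digit is the replicate number), with axes from 0. The sums of the carnitine shuttle (259 to 293 against 190 to 214 CPM) and of the lipid droplet genes (202 to 241 against 111 to 154 CPM) are higher in every EPS library. The sum for unsaturated chains is higher by a small margin (124 to 159 against 96.5 to 122 CPM). Of the single genes in these groups, only Cpt1a, Cpt2, Plin2 and Decr1 are higher in every EPS library. No share over all genes was computed for such sums. The other 5 role groups, the beta-oxidation spiral among them, overlap between the groups.

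Over the 37 genes with a mean of at least 1 CPM, the median log2 difference was 0.21 and 24 were above 0. Over all 12256 genes with that mean, the median was 0.10 and 63.6% were above 0, so genes in general lay slightly higher in the EPS group in CPM. The cause of this was not tested. Without control replicate 4 the medians were 0.16 and 0.09, and after quantile normalization 0.096 and 0.0052. Quantile normalization makes the distributions of the libraries equal, so a median near 0 over all genes follows by construction. The direction of Cd36, Cpt1a and Plin2 was the same under every scaling. Across all 16 other settings, 13 of the 40 genes changed sign in at least 1 setting, and these had P values of at least 0.222 over all libraries. Single libraries were often at the ends of the range. EPS replicate 2 was the highest of the 7 libraries for 17 of the 37 genes and control replicate 4 was the lowest for 15.

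**Figure D5:**
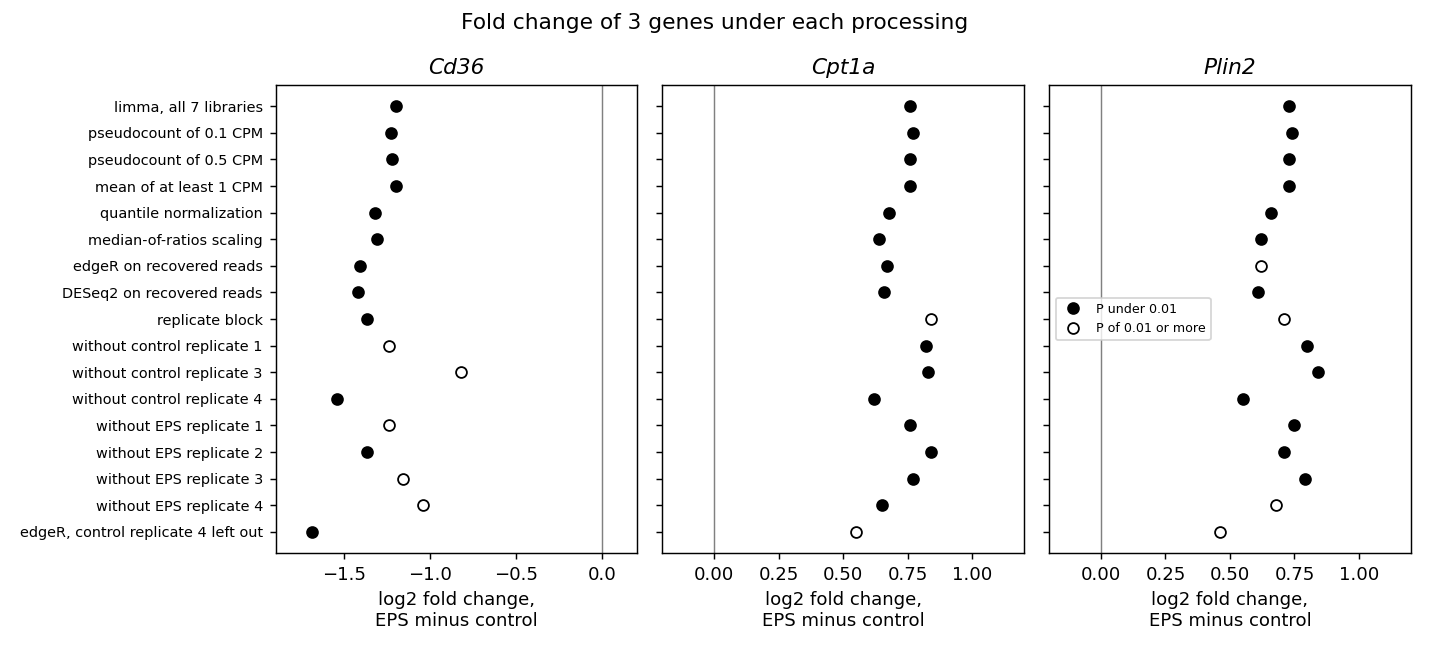
Log2 fold change of Cd36, Cpt1a and Plin2 under each of 17 settings, with filled points where P was under 0.01. The replicate block and the setting without EPS replicate 2 give the same log2 fold change and differ only in P. Cd36 runs from -1.69 to -0.82 and passes in 12 settings, Cpt1a runs from 0.55 to 0.84 and passes in 15, and Plin2 runs from 0.46 to 0.84 and passes in 13.

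Genes that act beside these 40 were read from 6 further lists, given as counts at P under 0.01 in limma, where 2.83% of all genes tested were higher and 1.34% lower in the EPS group. Of the PPAR regulators and direct targets, 1 of 11 tested rose and 0 fell. This was Pdk4, the mitochondrial kinase that inhibits pyruvate dehydrogenase and so limits the conversion of pyruvate to acetyl-CoA, at 23.4, 29.8 and 26.9 CPM in the control libraries and 45.2, 59.1, 49.1 and 61.0 CPM in the EPS libraries. The groups were far apart, and the log2 difference of Pdk4 was 0.97 (SE 0.17, limma adjusted p = 0.0730, and 0.0356 in edgeR). Of the genes of malonyl-CoA and AMPK control, 0 of 10 rose and 1 fell. This was Prkag3, the gamma subunit of AMPK found in skeletal muscle, at 113.7, 106.2 and 121.5 CPM in the control libraries and 69.0, 67.4, 68.9 and 42.2 CPM in the EPS libraries. The log2 difference of Prkag3 was -0.89 (SE 0.20, limma adjusted p = 0.120, and 0.0224 in edgeR), while 2 genes of this list were higher at P under 0.05, the catalytic subunits Prkaa1 (0.38) and Prkaa2 (0.56), beside 8.40% of all genes. Without control replicate 4 the differences were 0.98 for Pdk4 and -0.85 for Prkag3, and both passed P under 0.01, while neither Prkaa1 nor Prkaa2 passed P under 0.05. Over the settings tried the adjusted p ran from 0.00115 to 0.510 for Pdk4 and from 0.00231 to 0.524 for Prkag3.

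Of the peroxisomal beta-oxidation genes, 1 of 17 tested rose and 0 fell. This was Acox2, the branched-chain oxidase, with a control mean of 1.12 ± 0.468 CPM (SD, n = 3) and an EPS mean of 3.49 ± 1.67 CPM (SD, n = 4). The log2 difference of Acox2 was 1.04 (SE 0.30, limma adjusted p = 0.219). It was 0.87 and did not pass without control replicate 4, was 1.54 in edgeR, and passed P under 0.01 in 12 of 17 settings, with adjusted p from 0.0309 to 0.539. Of the other lipid droplet genes, 1 of 11 tested rose and 0 fell. This was Plin4, a perilipin of adipose tissue and muscle, with a control mean of 2.20 ± 1.43 CPM (SD, n = 3) and an EPS mean of 5.90 ± 2.16 CPM (SD, n = 4). The log2 difference of Plin4 was 1.15 (SE 0.35, limma adjusted p = 0.236). It was 0.97 and did not pass without control replicate 4, and it passed P under 0.01 in 7 of 17 settings. Of the other mitochondrial acyl-CoA genes, 0 of 20 passed in either direction at P under 0.01, and 4 were higher and 0 lower at P under 0.05 in limma, beside 8.40% and 3.21% of all genes. Of the other uptake and activation genes, 0 of 11 tested passed at P under 0.01, and 1 was higher and 1 lower at P under 0.05.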

How the data were processed

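RNA was measured in 7 libraries of C2C12 myotubes, 3 control and 4 EPS, grouped by the sample labels. The authors selected poly(A) RNA, made directional paired-end libraries and, per the processing notes, aligned reads with STAR 2.5.4b on GRCm38. The deposited unit is CPM per gene, on a linear scale. The read counter, annotation and strand setting are not given in the sources used here, so a gene and its overlapping or antisense partner may share reads.

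Every CPM in every library (100%) was a whole number of reads within 0.1 read, and these recovered reads gave the depths. Limits of 3 reads cover counting error only, whereas the 95% intervals of limma come from the spread between libraries. Testing took log2(CPM + 1) of every gene with a read in any library, by limma 3.58.1 in R 4.3.3 (empirical Bayes with trend, Benjamini-Hochberg over 19144 genes), which understates changes of low genes. Single genes also had an exact permutation test over libraries. The alternatives were edgeR 4.0.16 (TMM, quasi-likelihood), which the study names, and DESeq2 1.42.0, both on recovered reads, pseudocounts of 0.1 and 0.5 CPM, a mean of at least 1 CPM, quantile and median-of-ratios scaling, a replicate block, and leaving out each library. The fit was tested on simulated data.

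Levels between genes were set per kb of merged GENCODE M21 exons. Promoters came from RefSeq (GRCm38.p6), in which 32 of the 40 genes were matched. The 40 genes and the further lists were chosen with earlier results of these data known. Values in every library are given for genes of the set with P under 0.01, with groups that do not overlap, or among the 3 highest per kb. Of each further list, genes with P under 0.01 are named, at most 3, and Prkaa1 and Prkaa2 were named after their values were seen.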

Additional observations from a re-analysis of the deposited data

Results flagged for a closer look

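Acadl, the long-chain acyl-CoA dehydrogenase, was at 190.5 CPM in EPS replicate 4, while the other EPS libraries lay close together at 143.1 to 147.4 CPM. The gap to the nearest library was 0.91 of the range of the EPS group, above Dixon's 95% critical value for 4 samples. The test was made for 38 of the 40 genes, and chance alone gives about 1 such library in 20 groups. The cause was not tested.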

How the results depend on the processing

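The groups hold 3 and 4 libraries, control replicate 4 lacks low reads, and reads shared with a paralog (Acot1, Acot2) or a same-strand overlapping gene (Cpt1b, Acsl3, Acadl, Hadhb, Decr1, Etfb, Etfdh) cannot be separated. Genes below 3 reads per library were not measurable at this depth. Of all genes, 269 passed P under 0.01 and 2-fold, against 601 with a pseudocount of 0.1 CPM, 629 in edgeR, 585 in DESeq2 and 453 in edgeR without control replicate 4, an alternative chosen after seeing the data. At an adjusted p under 0.05 the 27 genes of limma became 106 with a pseudocount of 0.1 CPM, 121 with a mean of at least 1 CPM, 17 after quantile normalization, 290 in edgeR, 503 in DESeq2 and 104 in edgeR without control replicate 4. Leaving out single libraries gave 0 to 27 genes for this count, 209 to 325 for the 2-fold count, 1 to 3 of the 40 genes past P under 0.01 and 0 to 1 past P under 0.01 and 2-fold. Where it gave 0 genes, without EPS replicate 3, 2224 genes had an unadjusted P under 0.05. Of the 40 genes, 1 passed P under 0.01 in edgeR without control replicate 4 (Cd36), against 3 over all libraries in limma. The adjusted threshold was passed by 0 of the 40 in limma and by 1 (Cd36) in edgeR, in DESeq2 and in edgeR without control replicate 4. For Cd36 the settings in which P was not under 0.01 were all single libraries left out. Eci2 had P under 0.01 in a single setting, without control replicate 3 (0.72). The cause of these shifts was not tested, except that recovered reads and smaller pseudocounts give low genes larger fold changes by construction.

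With a replicate block, 161 genes passed P under 0.01 and 2-fold, 0 passed the adjusted threshold (1628 had an unadjusted P under 0.05), and 1 of the 40 genes passed P under 0.01 (Cd36). Cpt1a was then at 0.84 and Plin2 at 0.71, and neither passed P under 0.01. EPS replicate 2 has no control library of its number, so it does not enter the estimate with the block. The log2 differences are therefore the same as those without EPS replicate 2. In that setting, which has no block, Cpt1a and Plin2 both passed P under 0.01 in limma. The deviations of same-numbered libraries correlated at 0.25 for replicate 1, -0.45 for replicate 3 and 0.068 for replicate 4 over 12256 genes. The highest correlation of all pairs was 0.59, between control replicate 1 and EPS replicate 3. Control replicate 3 correlated best with EPS replicate 2 (0.36) and lowest with its own number. Only control replicate 4 correlated best with its own number. Whether equal numbers mark anything shared beyond the label is not given.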
